A study of Mus musculus with 6 samples.

Results

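The genes described here were silent in at least 1 of 3 CT26 lines and expressed in at least 1 other line. A protein-coding gene (GENCODE M21) was called silent in a line at 5 or fewer expected counts in both of its libraries, and expressed at 50 or more in both. Of 21967 protein-coding genes, 10151 were expressed in at least 1 line, 9791 were expressed in all 3 and 10068 were silent in all 3. Both thresholds were met by 17 genes, after 6 genes had been left out by name, of which 2 (Arhgap30 and Fcho1) would have met them. The genes were chosen by these expected counts, so the silent and expressed levels below are descriptions and carry no test.

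CT26 is a colon carcinoma line of BALBc mice, and RNA-seq was performed on 3 groups of 2 libraries, replicates A and B. The parental group was bulk CT26 cells, which the study describes as barcoded, recovered from engrafted tumours, selected with puromycin and grown in culture. Lines B04 and B64 resisted immune checkpoint blockade (ICB), and each was grown from a single cell of an engrafted tumour, so each is 1 clone. The titles call the samples tumours whereas the protocols describe cells in RPMI medium, and the treatment field reads none for all 6 libraries. The study describes culture in duplicates, and the labels do not say whether the replicates were separate cultures, so p-values measure only the spread between these libraries, which may be technical.

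A gene that is off in one line and on in another can hold that state over many cell divisions. In mammals such states are kept by DNA methylation, which Dnmt1 and Uhrf1 copy to the new strand after replication, by Polycomb complexes and by methylation of histone H3 at lysine 9. Promoters differ in how many CpG dinucleotides, the sites of this methylation, they hold: dense CpG is typical of broadly used genes and sparse CpG of genes used in few tissues. None of these marks was measured here, and in bulk samples fewer expressing cells and less RNA per cell cannot be told apart.

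The promoters matched for 12 of the genes ranged from sparse to dense CpG, and 5 of them are shown so that the range can be seen. Each runs from 250 bases before to 50 bases after the RefSeq start on the GRCm38.p6 build, 5′ to 3′, with every CpG in capitals, and for Dapk1 this start lies 264 bases inside the GENCODE gene. B3galnt1, Dapk1 and Elovl7 had dense CpG, and Pbxip1 and Gpr141 had sparse CpG.
B3galnt1, chr3:69598911-69599210, minus strand: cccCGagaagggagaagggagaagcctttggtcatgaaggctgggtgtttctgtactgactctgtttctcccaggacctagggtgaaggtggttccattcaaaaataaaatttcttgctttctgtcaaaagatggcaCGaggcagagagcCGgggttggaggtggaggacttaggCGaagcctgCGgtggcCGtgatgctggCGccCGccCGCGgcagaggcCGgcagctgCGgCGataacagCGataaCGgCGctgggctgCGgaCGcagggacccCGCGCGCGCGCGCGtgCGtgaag
Dapk1, chr13:60601961-60602260, plus strand: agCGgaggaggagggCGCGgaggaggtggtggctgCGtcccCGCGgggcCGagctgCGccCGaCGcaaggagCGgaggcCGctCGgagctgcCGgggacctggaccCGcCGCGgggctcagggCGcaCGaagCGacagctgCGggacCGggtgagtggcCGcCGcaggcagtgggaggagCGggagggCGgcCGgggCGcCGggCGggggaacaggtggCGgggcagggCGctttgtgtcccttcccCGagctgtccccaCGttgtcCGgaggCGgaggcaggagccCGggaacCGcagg
Elovl7, chr13:108214154-108214453, plus strand: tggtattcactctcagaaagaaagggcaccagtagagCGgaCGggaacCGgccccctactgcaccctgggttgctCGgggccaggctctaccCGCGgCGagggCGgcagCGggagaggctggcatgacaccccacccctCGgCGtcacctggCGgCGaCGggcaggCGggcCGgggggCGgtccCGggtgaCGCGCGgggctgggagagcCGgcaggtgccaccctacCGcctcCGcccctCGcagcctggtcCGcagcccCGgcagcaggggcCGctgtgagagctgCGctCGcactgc
Pbxip1, chr3:89436454-89436753, plus strand: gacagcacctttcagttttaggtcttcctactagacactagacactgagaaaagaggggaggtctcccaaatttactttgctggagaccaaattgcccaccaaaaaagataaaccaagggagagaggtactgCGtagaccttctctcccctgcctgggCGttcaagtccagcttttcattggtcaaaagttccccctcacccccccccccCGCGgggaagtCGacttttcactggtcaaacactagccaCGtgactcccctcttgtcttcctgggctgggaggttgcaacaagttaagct
Gpr141, chr13:19824208-19824507, minus strand: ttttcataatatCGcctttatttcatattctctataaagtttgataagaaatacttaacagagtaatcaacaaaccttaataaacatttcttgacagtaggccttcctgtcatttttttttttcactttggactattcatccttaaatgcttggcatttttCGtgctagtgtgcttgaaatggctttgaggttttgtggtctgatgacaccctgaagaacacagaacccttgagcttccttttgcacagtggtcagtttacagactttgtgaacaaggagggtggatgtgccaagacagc

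Library totals ranged from 19409204 to 23472012 expected counts, so 5 counts were a small part of any library. Fragments, measured as length minus effective length, were longer in both parental libraries and B04 replicate A (271.8 to 277.3 bases) than in B04 replicate B and both B64 libraries (220.8 to 246.2 bases). Markers of other cells were largely absent: Ptprc, which marks leukocytes, was at 1 count or fewer and Cd3e was at 0 in every library, and 4 endothelial markers summed to at most 0.1 TPM. The 7 leukocyte markers together had a level of 10.46 to 12.16 TPM outside B64 and of 40.22 and 36.64 TPM in the B64 libraries, nearly all of it Cd68. The epithelial markers Epcam and Cdh1 stayed at 2 counts or fewer in every library, whereas Krt18 (290 to 490 counts) and Krt20 (297 to 777 counts) were expressed. Of 5 fibroblast markers, Lum was at 0 in every library, Pdgfra had 81 to 199 counts and Col1a2 was abundant in every library. Col1a1 had 1137 and 1136 counts in the parental line, 1240 and 986 in line B04 and 141 and 208 in line B64, so it was lower in B64 alone, while Dcn had 25 and 25 counts in the parental libraries against 1 and 0 in B04 and 4 and 3 in B64.

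Most of the genes were on in the parental line and off in a clone. The parental line expressed 14 of the 17, and each of those 14 was silent in at least 1 clone. The rule used counts not scaled for depth. On counts scaled to the median library total, 6 of these 14 no longer met it (Gpr141, Lama2, Ostn, Pax3, Pde5a and Pros1), and 1 other gene did. Line B04 was silent for 13 and expressed 1, line B64 was silent for 9 and expressed 3, and the parental line was silent for 2. Of the 9965 genes expressed in the parental line, 12 (0.12%) were silent in B04 and 8 (0.08%) in B64. In the other direction, 1 of the 10016 genes expressed in B04 and 1 of the 9925 expressed in B64 (0.01% each) were silent in the parental line. The clones also differed from each other: 1 gene expressed in B04 was silent in B64, and 2 genes expressed in B64 were silent in B04.

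**Figure D1:**
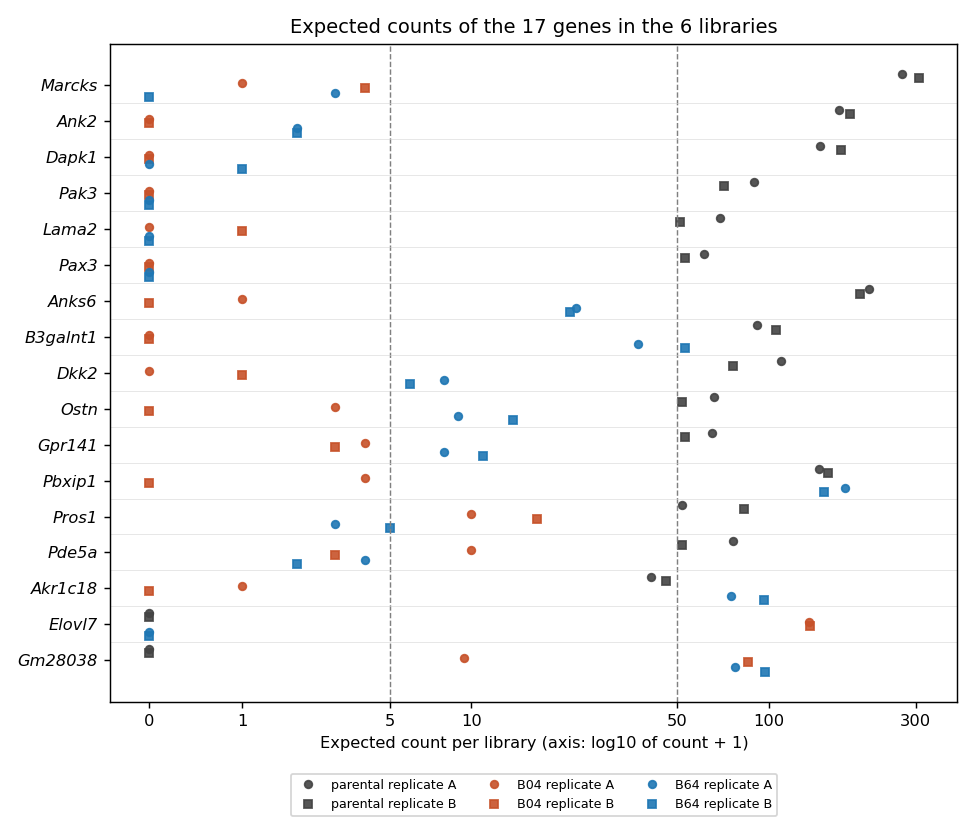
Expected counts of the 17 genes in each of the 6 libraries, on a log axis of count + 1, with circles for replicate A and squares for replicate B. Dashed lines mark 5 and 50 counts. Parental points lie right of the 50-count line for 14 genes and B04 points lie on or left of the 5-count line for 13.

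Most silent levels were far under the threshold. Silence meant 0 counts in both libraries in 11 of the 24 gene and line pairs called silent, and the level was 1% or less of that in the highest line in 18 of the 24. The lowest level above 0 was 0.25% (Anks6 in B04) and the highest was 6.77% (Pros1 in B64). These percentages are counts over the library total, summed over the 2 libraries of a line, and their exact 95% intervals cover counting error only. Just inside the rule were Lama2 with 51 counts in its lower expressing library, Pde5a, Pros1 and Ostn with 52, and Pros1 with 5 counts in its higher silent library. Just outside were Syt1 (0 and 0 counts in both clones, 46 in the lower parental library), Zfp280d (0 in B64, 45) and Rerg (6 in B64, 52 in the lower B04 library). Slurp1, Ly6c2, Tmem40 and Cfap45 also lay just outside, and these were low in the parental line and higher in a clone. When the rule was applied to the A libraries alone, 30 genes met it. Those that also met it in the B libraries are the 17 by definition, so their number is no check on the choice. In 39 of the 40 pairs of a silent and an expressing line the difference had the same direction in B, a count that includes the 17. Chosen in the B libraries alone, 30 genes met it, again with the 17 among them, and the direction in A was the same in 44 of 47 pairs.

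**Figure D2:**
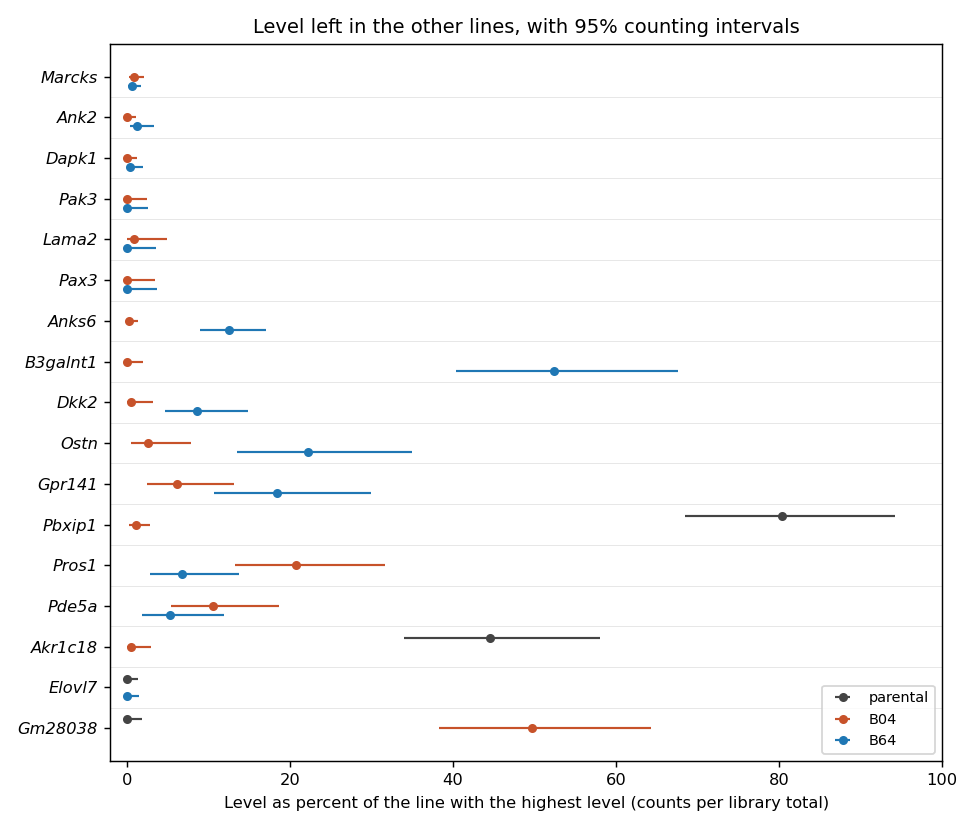
Level of each of the 17 genes in the other lines as a percent of the line with the highest level, from counts over library totals. Bars are exact 95% counting intervals, and the upper limits of the 6 genes expressed in the parental line alone stay at or under 4.93% in both clones.

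Expression in the parental line alone was seen for 6 genes. Both clones, which carry different barcodes, were silent for all 6. Marcks (chr10:37133375-37138920, minus strand) encodes a membrane-bound protein kinase C substrate that binds actin. It had 270 and 307 counts in the parental libraries against 1 and 4 in B04 and 3 and 0 in B64. Its level in B04 was 0.9% of the parental level (interval 0.29 to 2.12) and in B64 it was 0.59% (0.12 to 1.74), so the clones were both close to 0.

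Ank2 (chr3:126921612-127499350, minus strand) encodes ankyrin-B, which ties ion channels and transporters to the spectrin skeleton. Its counts were 169 and 183 in the parental libraries against 0 and 0 in B04 and 2 and 2 in B64. The parental level was at least 112.7-fold higher than in B04, where the bound takes 3 counts over the line in place of 0, and 77.1-fold higher than in B64. Dapk1 (chr13:60601947-60763191, plus strand) encodes a calcium and calmodulin-regulated kinase that promotes cell death, and the CpG-dense window at its RefSeq start is printed above. It had 146 and 171 counts in the parental libraries against 0 and 0 in B04 and 0 and 1 in B64. Both clones were thus at or next to 0, and the parental level was at least 101.5-fold higher than in B04.

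Pak3 (chrX:143518591-143797796, plus strand), a kinase that acts under Rac and Cdc42 and is best known from neurons, had 89 and 71 counts in the parental libraries. Its counts were 0 in all 4 clone libraries, which allows a level of up to 1.95% of the parental one in B04 and 2.14% in B64. Pax3 (chr1:78101267-78197134, minus strand), a transcription factor of the neural crest and of muscle precursors, showed the same split with 61 and 53 counts in the parental libraries and 0 in all 4 clone libraries. At this depth the allowed level was up to 2.74% in B04 and 3.01% in B64. Lama2 (chr10:26980036-27619758, minus strand), the laminin alpha-2 chain of muscle and nerve basement membranes, had 69 and 51 counts in the parental libraries against 0 and 1 in B04 and 0 and 0 in B64. The rule itself kept the parental and clone counts of these genes apart.

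Levels per transcript length were low even where these 6 genes were expressed. Mean parental TPM, a transcript level scaled by effective length, was 3.65 ± 0.163 (SD, n = 2) for Marcks, 2.31 ± 0.042 for Ank2, 1.62 ± 0.106 for Dapk1, 0.79 ± 0.099 for Pax3, 0.49 ± 0.099 for Pak3 and 0.34 ± 0.028 for Lama2. The long transcripts of Pak3 and Lama2 thus reached 50 counts at well under 1 TPM. The fibroblast marker Dcn followed the same split (25 and 25 parental counts against 0 to 4 in the clones), as given above, while Pdgfra, Col1a1 and Col1a2 were expressed in all 3 lines and Col1a1 was low in B64 alone. The part of other cells in the parental libraries in these 6 genes was not tested.

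Another 5 genes were expressed in the parental line, silent in B04 and between the thresholds in B64. Anks6 (chr4:47015669-47057427, minus strand) encodes an ankyrin repeat protein of the primary cilium, where it works with the kinase Nek8. Its counts were 211 and 198 in the parental libraries against 1 and 0 in B04 and 23 and 22 in B64. B64 kept 12.6% of the parental level (9.02 to 17.1) and B04 0.25% (0.01 to 1.43). B3galnt1 (chr3:69574158-69598960, minus strand), the enzyme that makes the glycolipid globoside, had 91 and 105 counts in the parental libraries against 0 and 0 in B04 and 37 and 53 in B64. Here B64 stood at 52.4% of the parental level (40.4 to 67.6), and 1 of its libraries passed 50 counts.

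Dkk2 (chr3:132085292-132180304, plus strand), a secreted modulator of Wnt signalling that binds the co-receptors Lrp5 and Lrp6, had 109 and 76 counts in the parental libraries against 0 and 1 in B04 and 8 and 6 in B64. Ostn (chr16:27307489-27351212, plus strand), a secreted peptide that binds the natriuretic peptide clearance receptor Npr3, had 66 and 52 counts in the parental libraries against 3 and 0 in B04 and 9 and 14 in B64. Gpr141 (chr13:19749682-19824257, minus strand), an orphan G protein-coupled receptor, had 65 and 53 counts in the parental libraries against 4 and 3 in B04 and 8 and 11 in B64. In all 5 genes the order of the lines was parental, then B64, then B04. The thresholds that define this pattern largely set that order.

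The remaining patterns held 6 genes. Pbxip1 (chr3:89436706-89450952, plus strand), whose product binds homeodomain proteins, was off in B04 and on in the other two lines. It had 145 and 155 counts in the parental libraries against 4 and 0 in B04 and 176 and 151 in B64. The parental and B64 counts overlapped, whereas the B04 counts lay far under both.

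Akr1c18 (chr13:4132615-4150654, minus strand) encodes a hydroxysteroid dehydrogenase that inactivates progesterone. It was highest in B64, with 75 and 96 counts, lower in the parental libraries, with 41 and 46, and silent in B04, with 1 and 0. Its mean level was 5.14 ± 0.693 TPM (SD, n = 2) in B64 and 2.28 ± 0.12 TPM in the parental line. B04 was the silent line for both Pbxip1 and Akr1c18.

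Pros1 and Pde5a were silent in B64 and between the thresholds in B04. Pros1 (chr16:62854307-62929346, plus strand) encodes protein S, a blood anticoagulant and a ligand of the Tyro3 and Mertk receptors. It had 52 and 83 counts in the parental libraries against 10 and 17 in B04 and 3 and 5 in B64. Pde5a (chr3:122728947-122859374, plus strand), a phosphodiesterase that breaks down cGMP, had 76 and 52 counts in the parental libraries against 10 and 3 in B04 and 4 and 2 in B64. For Pde5a the counts of the clones overlapped. These were the least complete of the silent states in B64, at 6.77% (2.86 to 13.7) and 5.35% (1.93 to 11.97) of the parental level.

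Elovl7 (chr13:108214404-108285683, plus strand), an enzyme that elongates long-chain fatty acids in the endoplasmic reticulum, was the only gene of the 17 that B04 expressed. It had 135 and 136 counts in B04 and 0 in the 4 other libraries. The B04 level was at least 94.0-fold higher than the parental level and at least 82.3-fold higher than the B64 level. Its mean level in B04 was 2.13 ± 0.156 TPM (SD, n = 2).

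Gm28038 (chr2:30281043-30301078, plus strand), a predicted gene, was at 0 in both parental libraries. Its counts were 9.4 and 85.4 in B04 and 77.3 and 96.8 in B64, so the B04 libraries differed more from each other than B04 replicate B did from B64. High values fell in the 3 libraries with short fragments and low values in the 3 with long fragments. Of its 304 stretches of 75 bases, 232 (76.3%) also occur in Gm28035, Nup188 or Phyhd1, which overlap it, and reads that match several genes were divided among them by RSEM. Its values are therefore uncertain. Of the other 16 genes, 15 shared no stretch of 75 bases with another gene and Pde5a shared 0.2%. The protocol does not mark strand, but every opposite-strand gene that overlaps the other 16 was at 0 counts in all 6 libraries.

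The tests below come from 1 fit by DESeq2 over all 6 libraries, with a Benjamini-Hochberg adjusted p under 0.05 taken as a call. They ask where the third line stands when it is neither silent nor expressed. Against the silent line, 6 of the 9 genes with such a line were called. The background over all genes tested was 24.3% called between B64 and B04 and 24.1% between B04 and the parental line. The silent line was fixed at low counts by the rule, so this count is no independent evidence.

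B64 was called higher than B04 in 4 of the 5 genes it held between the thresholds. For Anks6 the log2 difference, B64 minus B04, was 5.67 (SE 1.47, adjusted p = 0.000962) and it passed in all 12 alternative fits. For B3galnt1 the adjusted p was 1.12e-06, and since B04 was at 0 the difference is given as a bound, at least 32.9-fold higher in B64. For Ostn the log2 difference was 3.13 (SE 1.05, adjusted p = 0.0156), and it did not pass without B04 replicate B (2.19, adjusted p = 0.199) or without B64 replicate B (2.84, adjusted p = 0.115). For Dkk2 it was 3.99 (SE 1.55, adjusted p = 0.0433), it passed in 4 of the 12 alternative fits (adjusted p from 0.0135 to 0.296), and leaving out any 1 of the 6 libraries lost the call. Gpr141 had a log2 difference of 1.62 (SE 0.83, adjusted p = 0.158), with an interval from -0.02 to 3.25.

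Between the clones, Pros1 was not called (B04 minus B64, log2 difference 1.59, SE 0.79, adjusted p = 0.135) and nor was Pde5a (0.91, SE 0.92, adjusted p = 0.558, interval -0.89 to 2.71). Without B04 replicate A the Pde5a difference turned to -0.11 (adjusted p = 0.983). In the parental line, Akr1c18 exceeded B04 by 6.42 on the log2 scale (SE 1.48, adjusted p = 0.00017). Gm28038 was called in B04 against the parental line (adjusted p = 0.0011, at least 32.9-fold over the floor), with the limits on its values given above.

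Against the line that expressed the gene, the third line was lower and called in 7 of the 9 genes. The background was 16.3% called between B64 and the parental line, 7.45% lower in B64. Other comparisons had other shares. For Pros1 and Pde5a it was 12.9% lower in B04 than in the parental line. For Akr1c18 it was 8.87% higher in B64 than in the parental line, and for Gm28038 13.1% higher in B64 than in B04. The rule fixed the expressing line at 50 or more counts and the third line did not reach that in both libraries, so the direction and this count are no independent evidence either. B64 minus parental was -2.98 on the log2 scale for Anks6 (SE 0.39, adjusted p = 8.22e-13), while for B3galnt1 its difference was -0.92 (SE 0.43, adjusted p = 0.14). Dkk2, Ostn and Gpr141 were also lower in B64, by log2 differences of -3.51, -2.16 and -2.43 (adjusted p 7.26e-07, 0.00815 and 0.00197). The Ostn call did not hold without either parental or either B64 library (adjusted p from 0.0829 to 0.352), and the Gpr141 call did not hold without parental replicate A (0.198), parental replicate B (0.0583) or B64 replicate A (0.0875). With the fragment-length class as a block, none of these 4 genes was called (adjusted p from 0.4 to 1). The log2 difference stayed near its size for Gpr141 (-2.18), grew for Dkk2 (-6.12), shrank for Anks6 (-0.69) and turned to 1.71 for Ostn. All parental libraries had long and all B64 libraries short fragments, so only B04 separates the class from the line.

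B04 was lower than the parental line for Pros1 (log2 difference -2.28, SE 0.61, adjusted p = 0.00152) and Pde5a (-3.30, SE 0.72, adjusted p = 5.41e-05). The Pros1 call did not hold without parental replicate B (adjusted p = 0.187) or B04 replicate A (0.0935), nor did the Pde5a call without parental replicate A (0.0669). The parental line was lower than B64 for Akr1c18 (-1.18, SE 0.43, adjusted p = 0.0428), a call that was lost without any 1 of the 6 libraries. For Pbxip1, which the parental line and B64 both expressed, B64 minus parental was 0.34 (SE 0.29, adjusted p = 0.521), with an interval from -0.23 to 0.90 on the log2 scale, and it was not called in any of the 12 alternative fits (0.17 to 4.62, the highest with the fragment-length block).

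The genes lay on 8 chromosomes, 5 of them on chromosome 3 and 4 on chromosome 13. These chromosomes hold 4.76% and 3.63% of the protein-coding genes expressed in all libraries. On chromosome 3, Pde5a, Ank2 and Dkk2 lay within 9.45 Mb (chr3:122728947-132180304), with B3galnt1 and Pbxip1 elsewhere on it. B04 was silent for 4 of these 5. Chromosome 3 as a whole was lower in B04: 196 of 556 other protein-coding genes tested (35.3%) were called lower than in the parental line, against 14.3% of all protein-coding genes, with a median log2 difference of -0.17 against -0.004. In the stretch from Pde5a to Dkk2, 7 of 29 other genes were called lower and 4 higher, with a median of 0.08. The median shift was small beside the differences of the silent genes, and its part in them was not tested.

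The nearest neighbours of the silent genes differed less between lines, but the rule itself set a large difference for the silent genes. For each silent gene and line pair, the nearest tested protein-coding gene on each side was taken, passing over the chosen genes themselves. This gave 50 pairs with 34 neighbours, at a median distance of 113.2 kb and at most 2539.1 kb. Their median log2 difference, expressing minus silent line, was 0.10, and the largest was 1.23, for Il1rap, a co-receptor of interleukin-1, beside Ostn. Il1rap had 244 and 234 counts in the parental libraries against 107 and 93 in B04 and 33 and 32 in B64. In 12 of the 50 pairs (24.0%) the neighbour was called in the same direction as the silent gene, and in 5 in the opposite direction. Over all genes, 7.45% to 13.1% were called in a given direction, depending on the comparison. Leaving out the neighbours of Gm28038, which overlap it, left 10 of 48 (20.8%).

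Where B04 was silent and the parental line expressed the gene, 7 of 24 neighbours (29.2%) were called lower in B04, against 14.3% of all protein-coding genes. On chromosome 3 this was 4 of 8, beside the 35.3% called lower over the whole chromosome, and on other chromosomes it was 3 of 16 (18.8%). Where B64 was silent and the parental line expressed the gene, 1 of 16 neighbours (6.2%) was called lower in B64, against 8.1% of all protein-coding genes. Apart from the neighbours that overlap Gm28038, the closest were Pygo2 and Pmvk, which lie 1.6 and 3.6 kb from Pbxip1. Pygo2, a Wnt pathway cofactor, had 1857 and 2017 counts in the parental libraries against 1654 and 1502 in B04 and 1535 and 1534 in B64. Pmvk, an enzyme of the mevalonate pathway, had 437 and 546, 623 and 598, and 508 and 548 counts. Both were thus expressed in B04, where Pbxip1 had 4 and 0 counts. Pygo2 was called lower in B04 by DESeq2, as Pbxip1 was (parental minus B04, log2 difference 0.268, SE 0.086, adjusted p = 0.0106). Pmvk was not called (-0.343, SE 0.142, adjusted p = 0.0618).

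**Figure D3:**
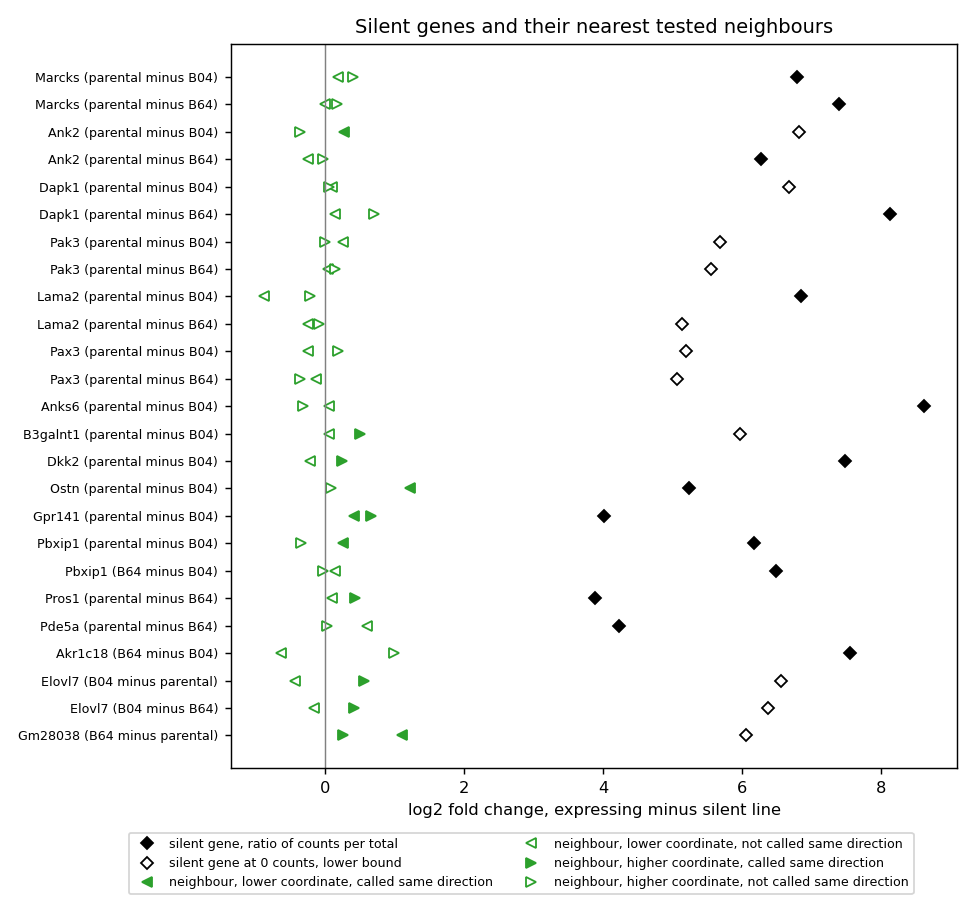
log2 fold change, expressing minus silent line, of each silent gene (diamonds, from counts over library totals, open where the silent line was at 0 and the value is a lower bound) and of its nearest tested neighbour on each side (triangles, from DESeq2). Silent genes lie beyond 3.8, where the rule itself places them at a high value. Neighbours lie between -0.88 and 1.23, with 12 of 50 called in the direction of the silent gene.

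RefSeq promoters were matched for 12 of the 17 genes, and Anks6, Ostn, Marcks, Pax3 and Gm28038 are named only. CpG content is given as the observed number of CpG over that expected from the C and G content of the 300 bases. Ratios were 0.96 for B3galnt1, 0.89 for Dapk1, 0.74 for Ank2, 0.73 for Elovl7, 0.70 for Pde5a and 0.64 for Pros1, and these 6 of 12 lay at or over 0.6. The other 6 were 0.56 for Pak3, 0.50 for Dkk2, 0.37 for Akr1c18, 0.31 for Pbxip1, 0.19 for Gpr141 and 0.05 for Lama2. The RefSeq start of Lama2 lies 2816 bases from its GENCODE start, so its window may not be the promoter in use. The distance was 264 bases for Dapk1, whose printed window lies inside the GENCODE gene, 235 for Ank2 and 211 for Pde5a, and 8 or fewer for the other 8.

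The median ratio of the 12 was 0.60. It was 0.80 over 7883 protein-coding genes with 50 or more counts in every library, of which 79.9% lay at or over 0.6, and 0.25 over 7188 with 5 or fewer counts in every library, of which 19.8% did. The median of the 12 lay between these and close to that of all 16506 protein-coding genes with a promoter (0.60, with 50.2% at or over 0.6). Dapk1 and Gpr141, whose sequences are printed above, held 38 and 2 CpG, and both were silent in B04.

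**Figure D4:**
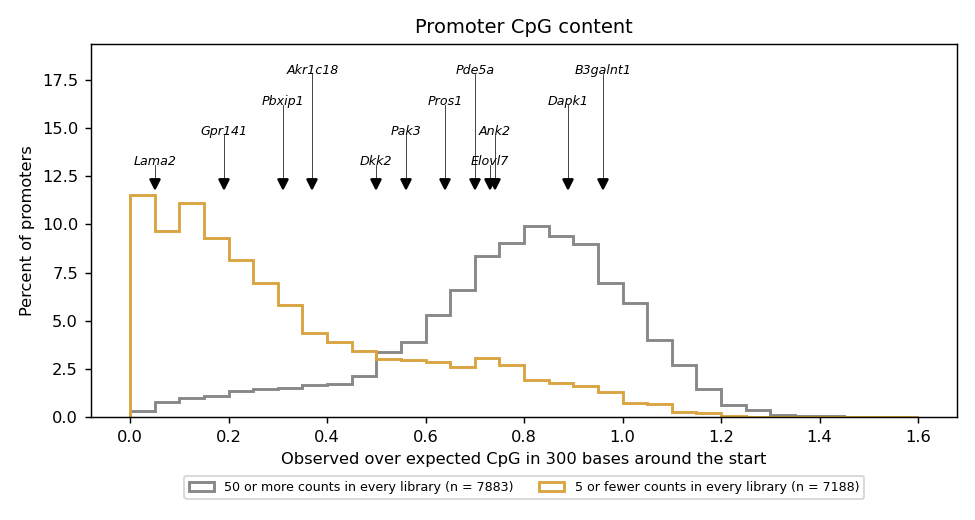
Observed over expected CpG in 300 bases around the start, as the percent of promoters in bins of 0.05, for genes with 50 or more counts in every library (grey) and with 5 or fewer in every library (yellow). Arrows mark the 12 genes with a promoter, which run from 0.05 (Lama2) to 0.96 (B3galnt1).

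Genes related to the 17 were measured from a list of 54 paralogues and partners, written after the counts of the 17 were known. In all 3 lines 26 were expressed, and in all 3 lines 23 were silent. Of 30 tested, 7 were called higher and 4 lower in B04 than in the parental line, and 2 higher and 4 lower in B64. Over all genes, 11.2% were higher and 12.9% lower in B04, and 8.87% and 7.45% in B64. Of 29 tested between the clones, 1 was higher and 7 were lower in B64, beside 13.1% and 11.1% of all genes.

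Some silent genes had a paralogue that stayed on. Marcksl1, the paralogue of Marcks, had 250 and 281 counts in the parental libraries against 116 and 84 in B04 and 88 and 101 in B64. It was lower in both clones (log2 differences -1.39, SE 0.25, adjusted p = 4.13e-07 in B04 and -1.28, SE 0.25, adjusted p = 6.43e-06 in B64, by DESeq2), but remained expressed in both. Pak2, a broadly used kinase of the Pak family, had 1790 to 2423 counts, and Pak1 had 93 to 162. Dapk3, a paralogue of Dapk1, had 892 to 1190 counts, Ank1, a paralogue of Ank2, had 126 to 168, and Pak1, Dapk3 and Ank1 were not called in any comparison. Pak2 was called in 1 comparison, lower in B04 than in the parental line (log2 difference -0.28, adjusted p = 0.00313).

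Laminins are trimers of an alpha, a beta and a gamma chain. Besides Lama2, the alpha chains Lama5 (11277 to 16878 counts) and Lama3 (166 to 352 counts) were expressed in all 3 lines, while Lama1 was at 0 and Lama4 at 3 counts or fewer. The shared chains Lamb1 (5599 to 8045 counts) and Lamc1 (7294 to 9056 counts) and the laminin receptor subunit dystroglycan, Dag1 (2271 to 3419 counts), were expressed in every library. Lama3 was higher in B04 than in the parental line by 0.73 on the log2 scale (SE 0.19, adjusted p = 0.00133) and not called in B64 (0.00, SE 0.20). Lama5 and Dag1 were also higher in B04, each by 0.26 (adjusted p 0.000431 and 0.00306), and not called in B64. Lamb1 was lower in B04 (-0.33, adjusted p = 7.08e-08) and in B64 (-0.23, adjusted p = 0.000374), while Lamc1 was not called. These calls are from DESeq2.

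For the secreted factors, receptors were partly present. Dkk1 and Dkk4, relatives of Dkk2, were at 0 and Dkk3 was at 4 counts or fewer. The receptors Lrp5 (330 to 506 counts), Lrp6 (1474 to 1820 counts) and Kremen1 (366 to 676 counts) were expressed in all libraries. Of these, only Lrp6 was called against the parental line by DESeq2, higher in B64 (log2 difference 0.39, SE 0.09, adjusted p = 0.000107). Gas6, the other ligand of the Tyro3 and Mertk receptors, was at 1 count or fewer, so Pros1 was the ligand of the pair with counts. Tyro3 had 405 to 677 counts and Mertk 39 to 78. Axl, a receptor of Gas6, had 10647 to 18156 counts. By DESeq2, Axl was lower than in the parental line in B04 (log2 difference -0.25, adjusted p = 5.91e-05) and in B64 (-0.44, adjusted p = 4.53e-13). Against the parental line, Tyro3 was called lower in B64 only (-0.41, adjusted p = 0.0192), and Mertk was not called. Npr3, the receptor for the product of Ostn, was at 1 count or fewer in every library.

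Partners of several other genes were missing in all lines. Prkg1, a kinase driven by cGMP, and Gucy1a1 and Gucy1b1, subunits of a cyclase that makes cGMP, were at 0 in all 6 libraries, including the parental ones that expressed Pde5a. A4galt, which makes the glycolipid that B3galnt1 extends, was at 3 counts or fewer. For Anks6, the cilium proteins Nek8 (150 to 296 counts) and Invs (222 to 304) were expressed in every library, while Bicc1 was at 1 count or fewer.

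The fatty acid elongases and the aldo-keto reductases each held 1 gene that was switched between lines. Elovl1 (1309 to 1872 counts), Elovl5 (1909 to 2726) and Elovl6 (1167 to 1783) were expressed in every library, and Elovl2, Elovl3 and Elovl4 were at 0 in all 6. Elovl5 and Elovl6 were higher in B04 than in the parental line, by 0.31 and 0.40 on the log2 scale (SE 0.08 and 0.09, adjusted p 0.000658 and 7.23e-05). The other Akr1c genes of the list stayed at 15 counts or fewer in every library. Of these, only Akr1c12 was tested, and DESeq2 called it in no comparison. Akr1c13 had parental counts of 10 and 3, B04 counts of 3 and 2, and 0 in each B64 library. Akr1c14 had parental counts of 6 and 3, B04 counts of 4 and 6, and likewise 0 in B64, where Akr1c18 was highest. The remaining Akr1c genes were at 1 count or fewer in every library.

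Genes that keep or remove the marks of silent states were themselves expressed. Of a list of 51 genes of DNA methylation, Polycomb and H3K9 methylation, 50 were matched, 47 were expressed in every library and none was among the 17. In B04 9 of 50 were higher and 1 lower than in the parental line, beside a background of 11.2% higher and 12.9% lower over all genes. In B64 2 were higher and 6 lower, beside 8.87% and 7.45%. Between the clones 3 were higher and 14 lower in B64, beside 13.1% and 11.1%.

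Dnmt1, the maintenance DNA methyltransferase, had 5691 and 5757 counts in the parental libraries against 7307 and 6405 in B04 and 4150 and 4541 in B64. It was higher in B04 by 0.29 on the log2 scale (SE 0.06, adjusted p = 8.76e-06) and lower in B64 (-0.19, SE 0.06, adjusted p = 0.00919). Uhrf1, its partner, was higher in B04 by 0.47 (SE 0.06, adjusted p = 1.68e-11), with 0.01 (SE 0.07) in B64. The helicase Hells and the H3K9 methyltransferase Suv39h1 were higher in B04 by 0.44 and 0.57 (adjusted p 2.97e-07 and 3.29e-08). Tet2, which oxidises methylated cytosine, was the 1 gene of the list that was lower in B04 (-0.63, SE 0.19, adjusted p = 0.00572). Tet3, an enzyme of the same kind, was higher in B04 (0.32, SE 0.1, adjusted p = 0.00727). These differences were small beside those of the 17 genes, and their part in the silent states was not tested.

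Germline genes and imprinted genes, which depend on DNA methylation in other settings, were also listed. Only 17 of 21967 protein-coding genes met the rule, so finding none of them in lists of this size says little about these genes. Of the same 21967 genes, 10068 were silent in all 3 lines. Of 54 matched germline genes, 46 were silent in all 6 libraries and none was among the 17. Of those tested, 0 were higher and 3 lower in B04 than in the parental line, and 0 higher and 2 lower in B64 (7 tested in each), where 12.9% and 7.45% of all genes were lower. Of 41 matched imprinted genes, 24 were silent in all libraries, none was among the 17, and of 14 tested 6 were lower in B04 and 2 lower in B64 with 0 higher in either, against the same shares.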

How the data were processed

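RNA-seq of 6 libraries was analysed, 2 from each of the parental line, B04 and B64, grouped by the sample titles. The authors aligned paired reads to mm10 with STAR and quantified genes with RSEM, all with default settings, and the expected count per gene in the deposited tables is an estimate that divides reads matching several genes among them. The deposited TPM values were scaled by the authors' RSEM run to effective length and library total, and the deposited FPKM values, also from RSEM, were not used. The annotation release is not given in the sources used here; 53706 of 53801 gene identifiers matched GENCODE M21, whose assembly GRCm38 is that of mm10, and all gene coordinates are from it.

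The 17 genes and the lists were chosen with earlier results of these data known. Genes were grouped by pattern over the 3 lines, and all were named with their counts, together with called neighbours and list genes where few. Expected counts were rounded and the Wald test of DESeq2 (version 1.42.0, in R 4.3.3) was applied with independent filtering, with the line as the only term and p-values adjusted over all genes tested. Intervals of log2 differences are 95% Wald intervals. A line at 0 counts was set at a floor of 3 counts over its 2 libraries, so folds against it are lower bounds, and intervals and floors cover counting error only, since PCR copies are not independent molecules. Promoters came from RefSeq. Library totals of 19409204 to 23472012 expected counts set the depth. The script was tested on simulated counts. Alternatives were edgeR (version 4.0.16, quasi-likelihood test), TMM factors, low-count filters, the replicate letter or the fragment-length class (under or over 260 bases) as a block, other thresholds, and leaving out each library. A count of neighbours without those of Gm28038 was added after seeing the data. A few genes of the lists are not reported here by name.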

Additional observations from a re-analysis of the deposited data

Results flagged for a closer look

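Of the 5 genes that were silent in B04 and between the thresholds in B64, 4 were called in B64 minus B04 in the DESeq2 fit, which is the difference between the clones in their change from the same parental libraries. The rule fixed B04 at 5 or fewer counts and B64 lay above that, so the test draws on values that chose the genes and is no independent evidence. Genes silent in one clone and expressed in the other (Akr1c18, Pbxip1 and Elovl7) differ between the clones by the rule itself and are not among the 4. The log2 differences were 5.67 for Anks6, 8.11 for B3galnt1, 3.99 for Dkk2 and 3.13 for Ostn. The fitted value for B3galnt1 rests on 0 counts in both B04 libraries and is no bound; the counts give at least 32.9-fold. The Dkk2 difference passed in 4 of 12 alternative fits and that of Ostn in 10 of 12. B64 had short fragments in both libraries and B04 in replicate B only, and with the fragment-length class as a block the differences for Anks6, B3galnt1 and Ostn were still called while that for Dkk2 was not (2.91, DESeq2 adjusted p = 0.296).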

How the results depend on the processing

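The number of genes that met the rule was 17 and moved with its thresholds: 13 with silence at 3 or fewer counts, 34 at 10 or fewer, 35 with expression at 30 or more, 6 at 100 or more, 12 on counts scaled to the median library total, and 27 by TPM of 0.1 or less and 1 or more. It ranged from 19 to 22 when 1 library was left out. With the fragment-length class as a block, 1596, 340 and 1625 genes were called in B04 vs parental, B64 vs parental and B64 vs B04 (3181, 2157 and 3118 without), neighbours called in the direction of the silent gene fell to 6 and calls among the silencing genes over the 3 comparisons to 18, from 12 and 35. The edgeR test gave 55 silencing calls, and keeping neighbours within 100 kb gave 6. Without any 1 library the counts ranged from 1755 to 2577, 988 to 1772 and 1696 to 2758 genes, 7 to 9 neighbours and 19 to 27 silencing genes, and the calls of the third line against the silent line from 4 to 5, against 6. In fits without a library, the line left with 1 library was assumed to vary like the others. Pde5a in B04 minus B64 turned from 0.91 to -0.11 with the fragment block and to -0.11 without B04 replicate A, and ranged up to 1.55 over the libraries left out. Ostn in B64 minus parental turned from -2.16 to 1.71 with the fragment block (adjusted p = 1). The cause was not tested.

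Under a replicate block for the letter, 2655, 1716 and 2638 genes, 10 neighbours, 31 silencing genes and 6 third-line calls remained as counts, and the Akr1c18 difference between the parental line and B64 was no longer called (adjusted p = 0.127). Letters paired the libraries weakly (correlations of deviations 0.11, 0.01 and -0.05 over 11996 genes), so they share only a letter. Each group has 2 libraries, and genes near 5 or 50 counts are the ones that depth decides.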
